A study of Mus musculus with 5 samples.

Results

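The machinery that brings proteins into the endoplasmic reticulum (ER) and carries them onward in vesicles was followed in 5 mouse cell cultures. The genes were chosen by symbol and function, with earlier results of these data known, as the subunits of the translocon, the signal recognition particle, signal peptidase, oligosaccharyltransferase and the COPII and COPI vesicle coats, with their cargo receptors. Of 50 symbols, 43 had at least 1 probe set of their own among the 8251 genes so represented on the array. Sec61g, Tmed2 and Tmed10 were covered only by probe sets listed for several loci, so they are described apart, and Srp54a, Srp72, Spcs3 and Sec24d matched no probe set and were not analysed here. Ssr4 stayed dim on all arrays (highest value 17.4, below the filter of 21.8), which left 42 genes for the tests.

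Each culture was measured on 1 Affymetrix expression array. AxJ is a mouse plasma cell line, and 4 AxJ derivatives were set beside A20, a mouse B cell line whose label places it at the memory stage. One AxJ culture carried empty vector, 1 overexpressed the RNA-binding protein hnRNP-H, and 2 overexpressed hnRNP-F as subclones B5 and D6. The hnRNP lines are clones that the submitters picked for high protein on western blots, and they describe the hnRNP-F clones as making less of the secreted form of heavy chain mRNA relative to the membrane form. Each array thus stands for 1 clone or culture. All AxJ cultures grew with the selection drug G418 and A20 without it, so drug and cell line cannot be told apart. The labels name no repeat of any culture. The p-values therefore rest on the spread between empty vector and hnRNP-H and between B5 and D6, in part shared across probe sets of like intensity. That spread can hold clone differences, the hnRNP-H transgene and technical variation, which cannot be told apart.

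As background, proteins bound for secretion are recognised by the signal recognition particle as they leave the ribosome, handed to its receptor and threaded through the Sec61 channel. Signal peptidase removes the signal, oligosaccharyltransferase attaches N-linked glycans, and COPII vesicles take the finished proteins toward the Golgi while COPI vesicles bring ER residents back. Plasma cells secrete antibody in bulk and are known for an expanded ER, which B cells at earlier stages lack.

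Levels are quantile-normalised intensities. A difference means one of log2(intensity + 6.55), a scale that understates the change of dim probe sets. Where several values are given for a gene, the AxJ lines come in the order empty vector, hnRNP-H, clone B5, clone D6. All levels are relative to the other transcripts on an array, and in such bulk samples fewer expressing cells and less RNA per cell cannot be told apart. The cell labels were set against marker genes. Of 8 plasma cell markers measured, 5 were lower in A20 and none was higher. The 5 were Jchain, Prdm1, Irf4, Igha and Fkbp11. The summed level of all 8 was 2638 in A20 against 15139 to 23823 in the AxJ lines. Igha, a heavy chain gene of a single antibody class, was the largest part of each AxJ sum (7075 to 14745, against 59.0 in A20). The sums therefore follow Igha most. The plasma cell marker Sdc1, which encodes syndecan-1, was dim on every array and lay inside the AxJ range in A20 (30.5), and the plasma cell transcription factor Xbp1 read 465 in A20 against 539 to 1302 in AxJ. Of 8 B cell markers, 6 were higher in A20 and none was lower, with a summed level of 10816 against 1955 to 3903. The part of these marker differences in the results below was not tested. Summed levels of T cell, myeloid, stromal and erythroid markers were 49.7, 151, 301 and 129 in A20, against ranges over the AxJ lines of 51.7 to 103, 157 to 372, 433 to 578 and 83.2 to 139. Of these markers 1 of 4, 4 of 5, 4 of 5 and 2 of 3 passed the filter on low values, and none passed the test in A20. Among them, the myeloid gene Cd14 read 85.1 in A20 and up to 250.9 in AxJ, in clone B5, and the stromal gene Col1a2 read 234 in A20 and 330 to 429 in AxJ. RNA integrity and labelling can be read from the Gapdh controls, whose 5' signal over 3' signal was 0.212 (empty vector), 0.866 (hnRNP-H), 0.181 (B5), 0.683 (D6) and 0.384 (A20).

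The first comparison asked how the secretory machinery differs between the B cell line A20 and the plasma cell line AxJ. Each stage has a single line here, so stage and line cannot be told apart. The comparison set the A20 array against empty vector and hnRNP-H, the 2 AxJ controls, with the spread taken from all AxJ arrays by limma. Of the 42 genes, 10 were lower in A20 at a Benjamini-Hochberg adjusted p under 0.05, and none was higher. These 10 are Srp9, Ssr1, Ssr3, Dad1, Ddost, Rpn2, Sec31a, Mcfd2, Copa and Copb1, and they belong to 5 of the 7 groups described below. Over all 6627 genes tested, 3.4 percent were lower and 3.21 percent higher by the same rule, against 23.8 percent and 0 percent of the members. The median difference of the members was -0.89, against -0.029 for all genes, and 37 of 42 lay below 0 where 51.7 percent of all genes did.

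The ordering over single arrays does not rest on the fit. A20 had the lowest value of the 5 arrays for 33 of 42 members, the highest for Tram1, Sec13 and Arf1, and a value inside the AxJ range for the other 6. Among all genes, A20 was lowest for 29.5 percent and highest for 27 percent. A20 was at least 2-fold below every AxJ array for 10 members (23.8 percent), where 5.16 percent of all genes met that rule, and at least 2-fold above every AxJ array for none, against 5.61 percent. Set against each AxJ line alone, the median member difference of A20 was -0.89 (empty vector), -0.90 (hnRNP-H), -0.86 (B5) and -0.86 (D6), values that share the A20 array.

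**Figure D1:**
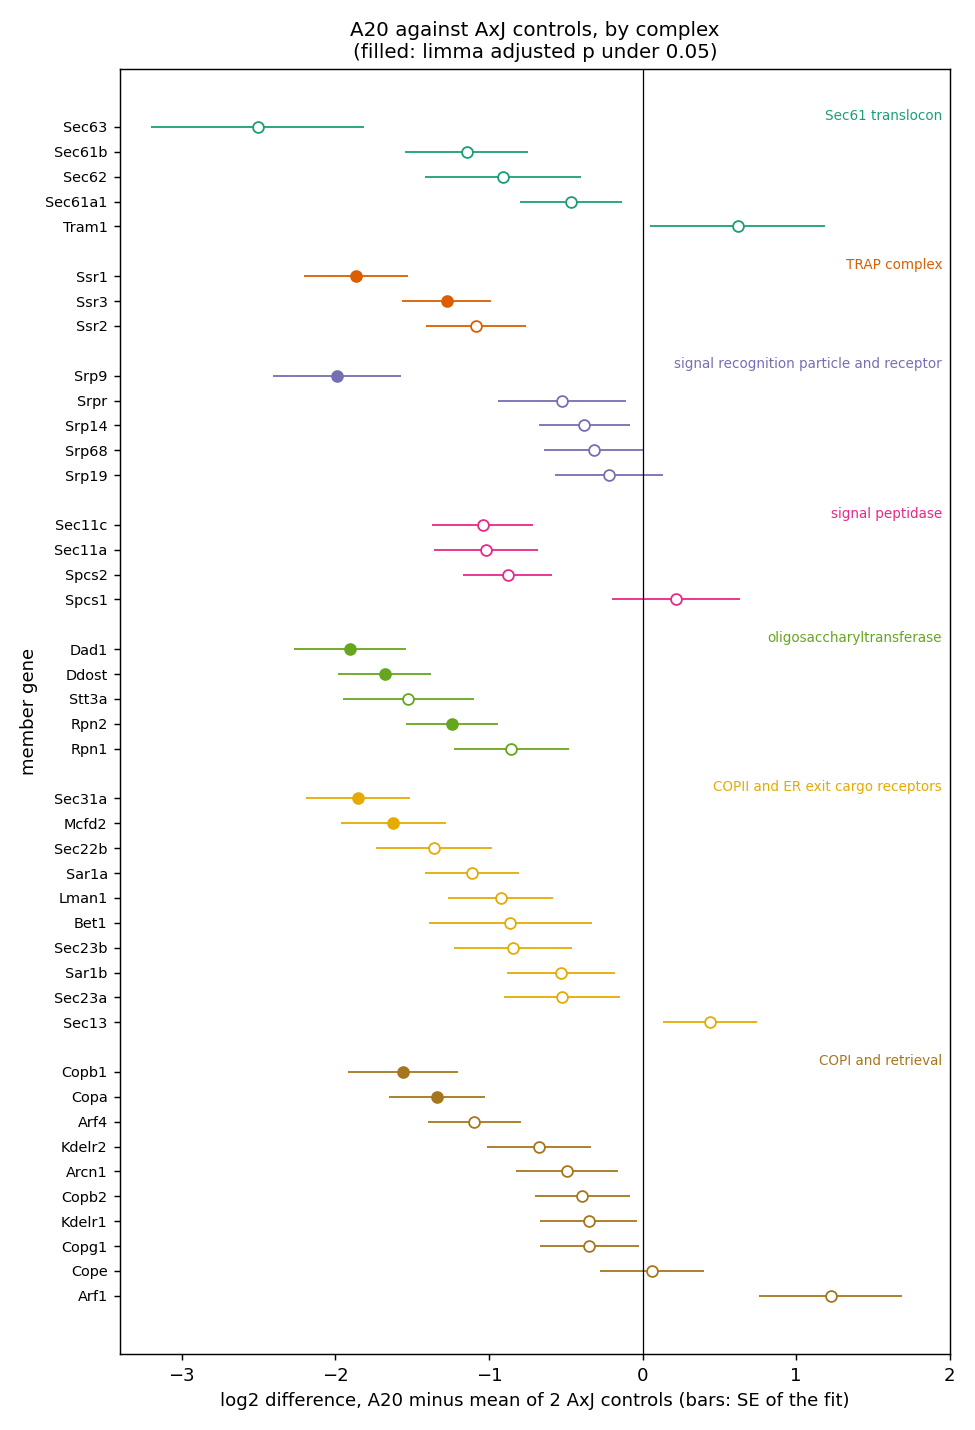
The log2 difference of A20 from the mean of the 2 AxJ controls (horizontal axis) is plotted for each of the 42 member genes (vertical axis, grouped by complex), with the SE of the fit as bars and filled points for an adjusted p under 0.05. The 10 filled points lie between -1.99 and -1.24, and 37 of the 42 points lie left of 0.

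The targeting step showed 1 large difference. Srp9, which with Srp14 forms the part of the particle that pauses translation, read 1242, 911, 976 and 528 in the AxJ lines and 263 in A20. A20 lay below all AxJ arrays, and the nearest was D6. The difference was -1.99 (SE 0.41, 1 array against 2, limma adjusted p = 0.0286), that is, 3.97-fold lower. Its partner Srp14 read 1188, 1370, 1394 and 1619 in AxJ and 981 in A20, a difference of -0.38 (SE 0.30, adjusted p = 0.565), so A20 was again lowest but by little. Srp19, which helps the particle's RNA fold, read 448, 318, 333 and 309 in the AxJ lines and 324 in A20, so that A20 lay inside the AxJ range. It had the smallest difference of the 5 genes measured here, -0.22 (SE 0.35), and its sign turned under median scaling (0.075). Srp68, a scaffold subunit, differed by -0.32 and Srpr, which encodes the receptor that docks the particle at the membrane, by -0.52, neither past the threshold. The Srpr value was -0.97 without empty vector and -0.076 without hnRNP-H. The median of these 5 genes was -0.38.

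The Sec61 channel and its helpers had no gene past the threshold, though 4 of 5 were lowest in A20. Sec63, which recruits the chaperone BiP to the channel, read 39.6, 90.7, 25.8 and 68.7 in the AxJ lines and 5.23 in A20. Its difference was the most negative of all members, -2.51, but with an SE of 0.70 it did not pass (adjusted p = 0.0781). The A20 value lies under the filter value of 21.8, so the pseudocount sets the size of that difference, which ran from -3.10 to -1.62 over the alternatives. Tram1, a membrane protein beside the channel, read 321, 589, 179 and 469 in AxJ and 673 in A20, the highest value being that of A20. The difference was 0.62 (SE 0.57, adjusted p = 0.632). A dimmer Tram1 probe set differed by -0.38, with A20 inside the AxJ range. For Sec63 and the brighter Tram1 probe set the arrays of low Gapdh ratio, empty vector and B5, were the lowest AxJ arrays. With that ratio as a covariate Sec63 differed by -2.41 and passed, and Tram1 by 0.71 and did not. The A20 ratio (0.384) lies between those of empty vector (0.212) and hnRNP-H (0.866), so that fit moves these differences little. The part of RNA quality was not tested.

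None of the channel's own subunits passed. Sec61b, the small beta subunit, read 1485, 2812, 3239 and 2586 in AxJ and 921 in A20, below all AxJ arrays in A20, with a difference of -1.14 (SE 0.40, adjusted p = 0.153). The value depends on the control. Without empty vector, which sets A20 against hnRNP-H alone with the spread taken from B5 and D6, it was -1.60 (limma adjusted p = 0.0478), and without hnRNP-H it was -0.69 and did not pass. Sec61a1, which encodes the pore, differed by -0.47, and Sec62, a partner of Sec63, by -0.91. A second Sec61a1 probe set differed by -1.13. Of the dimmer Sec62 probe sets, one differed by -0.82 and another by 0.097, with A20 inside the AxJ range for the latter. A probe set listed for Sec61g, the gamma subunit, and several other loci read 2244, 1882, 2781 and 1894 in AxJ and 1311 in A20, a difference of -0.65 that did not pass.

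The translocon-associated protein (TRAP) complex, which aids insertion of some signals, was lower in 2 of its 3 measured subunits. Ssr1, the alpha subunit, read 544, 784, 816 and 827 in the AxJ lines and 174 in A20. A20 lay below all AxJ arrays, of which empty vector was the lowest, a difference of -1.87 (SE 0.34, adjusted p = 0.0173), or 3.65-fold. Ssr3, the gamma subunit, read 3138, 2628, 2244 and 1945 in AxJ and 1182 in A20, a difference of -1.28 (SE 0.29, adjusted p = 0.0401), with no overlap between A20 and the AxJ arrays. Ssr2, the beta subunit, read 658, 909, 944 and 1011 in AxJ and 362 in A20, a difference of -1.08 (SE 0.32, adjusted p = 0.0991), again with A20 lowest. A dimmer Ssr1 probe set differed by only -0.73, with A20 inside the AxJ range (60.4 against 52.4 to 107), so the size for Ssr1 rests on the brighter one. The other 2 Ssr3 probe sets differed by -1.11 and -1.45.

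Signal peptidase did not pass in any of its 4 measured genes, although 3 of them were lowest in A20. Sec11c and Sec11a are the alternative catalytic subunits. Sec11c read 352, 368, 236 and 232 in the AxJ lines and 171 in A20. Its difference was -1.04 (SE 0.33, adjusted p = 0.113), and the clones lay between the controls and A20. Sec11a differed by much the same, -1.02 (SE 0.34, adjusted p = 0.134), with 828, 586, 988 and 819 in AxJ and 340 in A20. Spcs2, an accessory subunit, differed by -0.88 (adjusted p = 0.133). Spcs1, the smallest accessory subunit, read 70.0, 73.7, 133 and 94.8 in AxJ and 84.7 in A20, so A20 lay inside the AxJ range, with a difference of 0.22 (SE 0.41) that turned to -0.082 with all 4 AxJ arrays as 1 group.

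Oligosaccharyltransferase had the lowest median of the 7 groups, -1.52, and all 5 of its member genes were lowest in A20. Dad1, a small membrane subunit first known as a defender against cell death, read 1930, 3336, 2578 and 2982 in the AxJ lines and 673 in A20. That is a difference of -1.90 (SE 0.37, adjusted p = 0.0215), or 3.74-fold. A second, dimmer Dad1 probe set differed by -1.18 and did not pass (limma adjusted p = 0.184). The median difference of the gene's probe sets was -1.54, and the median of their adjusted p-values was not under 0.05. That median is no test of its own. Ddost, which encodes a core membrane subunit, read 1038, 922, 938 and 1079 in AxJ and 301 in A20, with AxJ values close together and a difference of -1.68 (SE 0.30, adjusted p = 0.017). Rpn2, or ribophorin II, read 2304, 1777, 1791 and 1916 in AxJ and 853 in A20, a difference of -1.24 (SE 0.30, adjusted p = 0.0494). A second Rpn2 probe set differed by -1.88 and also passed (limma adjusted p = 0.0166).

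The other 2 member genes of the enzyme did not pass. Stt3a, a catalytic subunit, read 124, 164, 86.0 and 128 in AxJ and 45.4 in A20, a difference of -1.52 (SE 0.43, adjusted p = 0.0807). Rpn1, or ribophorin I, had the smallest difference of the group, -0.85 (SE 0.37, adjusted p = 0.257), with 715, 1208, 1507 and 1239 in AxJ and 512 in A20. A second Rpn1 probe set differed by -1.56, so the 2 probe sets give different sizes. Outside the member list, the enzyme's genes Stt3b, Ostc and Krtcap2 differed by -0.26, -0.56 and -1.40, and none passed. For Stt3b, the alternative catalytic subunit, A20 lay inside the AxJ range (183 against 175 to 246).

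**Figure D2:**
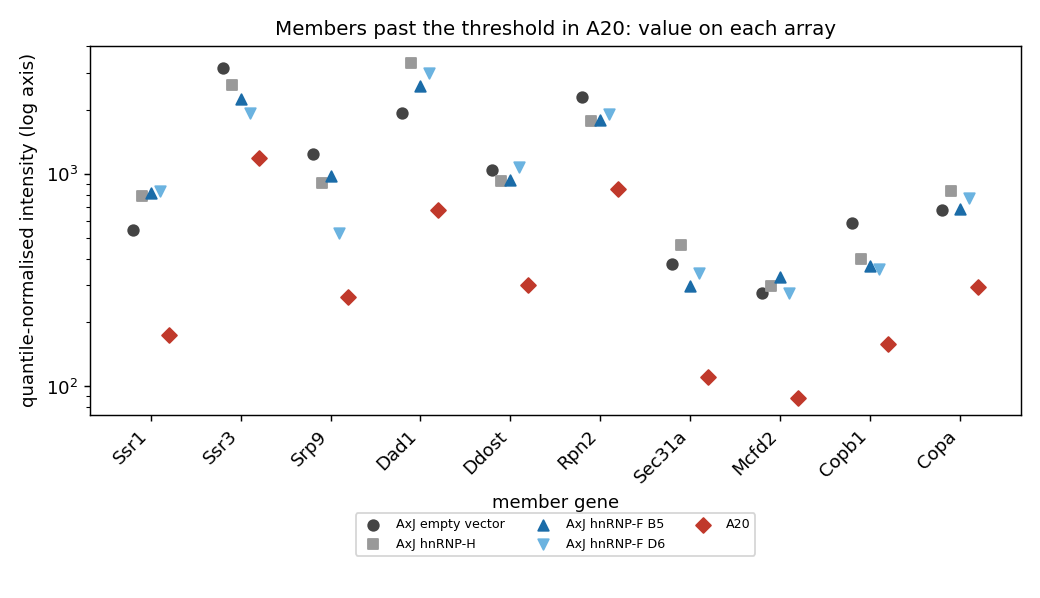
Quantile-normalised intensity (vertical log axis) is shown for the 10 member genes past the threshold in A20 (horizontal axis), with 1 symbol for each of the 5 arrays. The A20 symbol is the lowest for each of the 10 genes, from 88.4 for Mcfd2 to 1182 for Ssr3.

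Among COPII components and ER exit receptors, 2 of 10 genes were lower in A20. Sec31a, an outer coat subunit, read 375, 461, 298 and 342 in the AxJ lines and 111 in A20. The difference was -1.85 (SE 0.34, adjusted p = 0.018), or 3.61-fold. Mcfd2, which with Lman1 forms a receptor for glycoprotein cargo, read 276, 296, 327 and 275 in AxJ and 88.4 in A20, with the AxJ arrays nearly level and a difference of -1.62 (SE 0.34, adjusted p = 0.0292). Lman1 itself differed by -0.92 (SE 0.34, adjusted p = 0.177), from 458, 584, 419 and 537 in AxJ to 269.

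The other outer coat subunit was not low in A20. Sec13, which also serves in the nuclear pore, read 580, 683, 541 and 577 in the AxJ lines and 855 in A20. A20 was the highest array, with a difference of 0.44 (SE 0.31, adjusted p = 0.509) that did not pass. The small GTPases that start coat assembly were Sar1a at -1.11 (SE 0.31, adjusted p = 0.0781) and Sar1b at -0.53 (adjusted p = 0.483). The inner coat genes Sec23a and Sec23b differed by -0.53 and -0.84. The membrane fusion proteins (SNAREs) Sec22b and Bet1 differed by -1.36 and -0.86, and none of these 6 genes passed. A dimmer Sec22b probe set differed by only -0.38, with A20 inside the AxJ range (64.7 against 55.6 to 93.5). A20 lay inside the AxJ range for Sar1b.

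Among COPI and retrieval genes, 2 of 10 were lower. Copb1, the beta coat subunit, read 587, 396, 370 and 358 in the AxJ lines and 159 in A20. The difference was -1.56 (SE 0.36, adjusted p = 0.0403), and A20 lay below all AxJ arrays. Copa, the alpha subunit, read 679, 830, 684 and 768 in AxJ and 294 in A20, a difference of -1.34 (SE 0.31, adjusted p = 0.0442). The other coat subunits differed less and did not pass: Arcn1 (delta) by -0.49, Copb2 (beta prime) by -0.39, Copg1 (gamma) by -0.35 and Cope (epsilon) by 0.061. Cope turned to -0.13 when A20 was set against hnRNP-H and D6 alone, and a second, dim Copg1 probe set differed by 0.86.

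The Arf GTPases recruit coats to membranes, and the members Arf1 and Arf4 had differences of opposite sign. Arf1 read 1760, 4241, 3497 and 4015 in the AxJ lines and 6394 in A20. It was the highest difference among the members, 1.22 (SE 0.47, adjusted p = 0.189), but the empty vector array lay far below the other AxJ arrays. Without hnRNP-H, which leaves empty vector as the lone control, Arf1 was higher by 1.86 and passed (adjusted p = 0.0209), and without empty vector it differed by 0.59. Arf4 read 664, 703, 690 and 754 in AxJ and 316 in A20, a difference of -1.10 (SE 0.30, adjusted p = 0.0759), with A20 below all AxJ arrays. The Arf genes outside the member list did not pass either, with Arf2 at -1.0, Arf3 at -0.79, Arf5 at -0.043 and Arf6 at 0.16. The KDEL receptors, which return escaped ER residents, differed by -0.35 for Kdelr1 and -0.67 for Kdelr2.

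The p24 cargo receptors could be read only through shared probe sets. The one listed for Tmed10 and its pseudogene read 938, 1048, 638 and 928 in the AxJ lines and 192 in A20. Its difference was -2.33 (SE 0.34, adjusted p = 0.00652), lower in A20 than on each AxJ array, though the transcripts of the 2 loci cannot be told apart. Of 3 probe sets listed for Tmed2 and a second locus, none passed, with differences of -1.31, -1.43 and -1.92, and A20 was lowest for each.

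**Figure D3:**
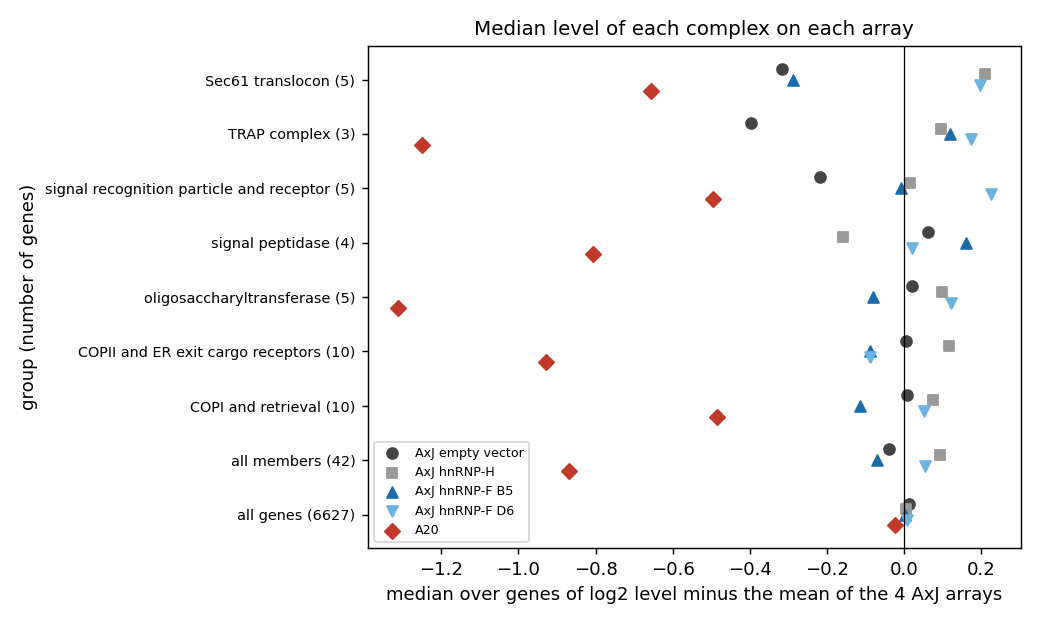
For each complex, all members and all genes (vertical axis, with the number of genes), the points give the median over genes of the log2 level on 1 array minus the mean of the 4 AxJ arrays (horizontal axis). The A20 median is the lowest in each complex, from -1.31 for oligosaccharyltransferase to -0.49 for COPI and retrieval, while for all genes it is -0.023.

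How far these calls hold depends on the AxJ arrays behind them. Without empty vector, Dad1, Ddost, Sec31a and Ssr1 still passed, and the other 6 had adjusted p from 0.0553 to 0.111. Without hnRNP-H, 8 of the 10 still passed, and Mcfd2 and Copa did not. Without B5 or without D6 only Srp9 still passed, and the other 9 had adjusted p up to 0.153 and 0.148. Leaving out B5 or D6 cannot change a difference, which is A20 minus the mean of empty vector and hnRNP-H, and alters only the spread. Without empty vector or without hnRNP-H the 10 differences lay between -2.30 and -1.05. With the log2 Gapdh ratio as a covariate all 10 still passed. The A20 ratio (0.384) lies between those of empty vector (0.212) and hnRNP-H (0.866), so that fit moves the A20 differences little. The ratio also parts empty vector from hnRNP-H and B5 from D6, the pairs that give the spread. The part of RNA quality was thus not tested. None passed when limma was run without the intensity trend (adjusted p from 0.105 to 0.202 for the 10), and 4 passed under median scaling and 4 without the filter. Over all 16 alternatives, Ddost, Sec31a and Srp9 passed in 13 each, Ssr1 and Dad1 in 11 and Mcfd2 in 10. Copb1 passed in 9, Copa in 8, and Rpn2 and Ssr3 in 7. Among these alternatives, the median over a gene's probe sets takes the median of their adjusted p-values, which is no test of its own.

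Promoters were searched for short elements that the ER stress factors XBP1 and ATF6, which are known to drive secretory genes, bind. Xbp1 itself differed by -0.84 in A20 and did not pass. The part of these factors in the A20 differences was not tested. RefSeq promoters (GRCm38.p6, 250 bases before to 50 after the start site) were at hand for 39 of the 50 symbols, including all 10 genes lower in A20. The element TGACGTGG, the core of the unfolded protein response element, searched on both strands, was in 5 of 39 member promoters (12.8 percent), against 1.16 percent of 5323 genes tested on the arrays and 0.714 percent of all 27025 genes. The 5 were Copb1, Copb2, Sec23a, Arf1 and Sec24d. Of these, Copb1 was lower in A20, Copb2 and Sec23a did not pass, Arf1 was highest in A20, and Sec24d was not analysed here. The following 4 show the element in capitals, written as CCACGTCA where it lies on the other strand.
Copb1 (chr7:114254631-114254930, minus strand): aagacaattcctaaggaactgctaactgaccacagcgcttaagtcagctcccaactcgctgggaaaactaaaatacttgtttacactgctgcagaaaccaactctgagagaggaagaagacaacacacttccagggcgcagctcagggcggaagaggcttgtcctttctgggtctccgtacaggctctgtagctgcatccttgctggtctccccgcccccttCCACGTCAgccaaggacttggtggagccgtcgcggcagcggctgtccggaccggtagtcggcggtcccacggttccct
Copb2 (chr9:98563481-98563780, plus strand): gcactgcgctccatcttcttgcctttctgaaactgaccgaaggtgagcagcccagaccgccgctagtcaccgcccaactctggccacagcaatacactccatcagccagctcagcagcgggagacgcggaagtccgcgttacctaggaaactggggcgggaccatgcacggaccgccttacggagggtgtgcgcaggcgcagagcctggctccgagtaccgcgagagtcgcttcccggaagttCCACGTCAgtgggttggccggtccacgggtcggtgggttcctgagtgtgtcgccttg
Sec23a (chr12:59011968-59012267, minus strand): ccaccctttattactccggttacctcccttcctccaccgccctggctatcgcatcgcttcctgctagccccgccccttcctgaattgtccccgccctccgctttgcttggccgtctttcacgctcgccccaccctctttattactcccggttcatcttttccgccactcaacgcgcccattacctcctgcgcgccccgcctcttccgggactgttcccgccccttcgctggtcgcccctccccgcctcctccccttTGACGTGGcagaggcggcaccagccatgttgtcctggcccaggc
Arf1 (chr11:59228113-59228412, minus strand, 1 of 2 windows): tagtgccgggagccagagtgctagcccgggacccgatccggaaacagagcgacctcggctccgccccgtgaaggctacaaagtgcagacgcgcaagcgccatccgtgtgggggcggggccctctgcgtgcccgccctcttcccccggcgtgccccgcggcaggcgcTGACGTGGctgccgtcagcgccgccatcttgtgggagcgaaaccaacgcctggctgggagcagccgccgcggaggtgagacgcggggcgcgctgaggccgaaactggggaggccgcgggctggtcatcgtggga

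The shorter element CCACG, which TGACGTGG contains on its other strand, was in 8 of the 10 genes lower in A20, in 15 of 23 other tested members (65.2 percent) and in 51.2 percent of the genes tested on the arrays. CCAAT was in 5 of the 10, in 10 of the 23 and in 42.9 percent. The full ER stress elements ERSE (CCAAT and CCACG with 9 bases between) and ERSE-II, which holds CCACG, were in no member window. They were in 0.188 and 0.132 percent of the genes tested on the arrays and in 0.137 and 0.0444 percent of all genes. At such rates their absence from 39 member genes tells little. Such matches describe these letters in these windows and no binding. A pair of promoters, chosen after the values were seen from the genes lower in A20, is printed with each CCACG, on either strand, in capitals.
Mcfd2 (chr17:87265898-87266197, minus strand): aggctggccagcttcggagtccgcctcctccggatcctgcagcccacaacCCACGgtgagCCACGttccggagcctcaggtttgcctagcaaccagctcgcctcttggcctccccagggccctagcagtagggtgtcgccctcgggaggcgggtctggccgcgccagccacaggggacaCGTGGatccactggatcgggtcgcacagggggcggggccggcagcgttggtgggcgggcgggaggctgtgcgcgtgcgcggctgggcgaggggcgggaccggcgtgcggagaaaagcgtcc
Ssr1 (chr13:37994159-37994458, minus strand): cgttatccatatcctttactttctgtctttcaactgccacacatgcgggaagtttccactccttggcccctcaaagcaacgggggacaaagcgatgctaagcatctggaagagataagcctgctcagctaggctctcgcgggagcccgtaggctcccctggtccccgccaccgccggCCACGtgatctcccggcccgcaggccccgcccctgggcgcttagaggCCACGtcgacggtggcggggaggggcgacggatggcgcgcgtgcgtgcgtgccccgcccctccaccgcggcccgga

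Other genes of the pathway were taken from a list of 139 symbols, of which 89 passed the filter. Of these, 9 were lower in A20, none was higher, and the median difference was -0.57. The share of 9 in 89 stands beside 3.4 percent of all genes. In N-glycan assembly and transfer 4 of 14 were lower. Alg5, which makes the glucose donor of the lipid-linked glycan, fell from 412 and 517 in the controls to 62.8 in A20 (-2.76, adjusted p = 0.00274). Alg2, Dpm2 and Dpm3, which act in building that glycan or its mannose donor, differed by -1.48, -1.40 and -1.59 and passed.

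Among other translocation and ER membrane genes 3 of 14 were lower. Ckap4, which shapes ER sheets, fell from 192 and 280 to 4.16 (-4.48, adjusted p = 0.00065), a value under the filter, so the size depends on the pseudocount. Bcap31, an ER quality control and export factor, differed by -2.49 and Rrbp1, a ribosome-binding ER protein, by -1.70, both past the threshold. Among tethers, SNAREs and Golgi proteins 2 of 33 were lower, Golga4 by -3.74 and Yipf4 by -1.99. None of 13 other COPII and ER exit genes and none of 15 other COPI, Arf and retrieval genes passed, with medians of -0.38 and -0.65.

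The second comparison asked whether overexpression of hnRNP-F changed the machinery within AxJ. It set clones B5 and D6 against the 2 controls. No member passed (limma, smallest adjusted p = 0.788), and none had an unadjusted p under 0.05, where 5.93 percent of all genes did. By the adjusted rule 0 percent of all genes were lower and 0.0151 percent higher. The median member difference was -0.045, against 0.013 for all genes, with 23 of 42 below 0. The differences ran from -0.60 to 0.60.

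Both clones lay below both controls for 9 members (21.4 percent, against 19.6 percent of all genes) and above both for 7 (16.7 percent, against 19 percent), shares close to the background. The largest statistic was that of Sec11c, which read 352 and 368 in the control lines, 236 in B5 and 232 in D6. The pairs did not overlap, and the difference was -0.60 (SE 0.27, limma adjusted p = 0.788). Kdelr1 read 638 and 808 in the control lines, 1147 in B5 and 964 in D6, a difference of 0.55 (SE 0.26, adjusted p = 0.788), with both clones above both controls. Sar1b read 500 and 385 against 337 and 259, a difference of -0.56 (SE 0.29, adjusted p = 0.788), but its second probe set differed by 0.023. In a simulation of this comparison with 200 changed among 9108 probe sets, 16 percent of 2-fold and 68 percent of 4-fold changes were recovered, so small changes could have been missed.

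**Figure D4:**
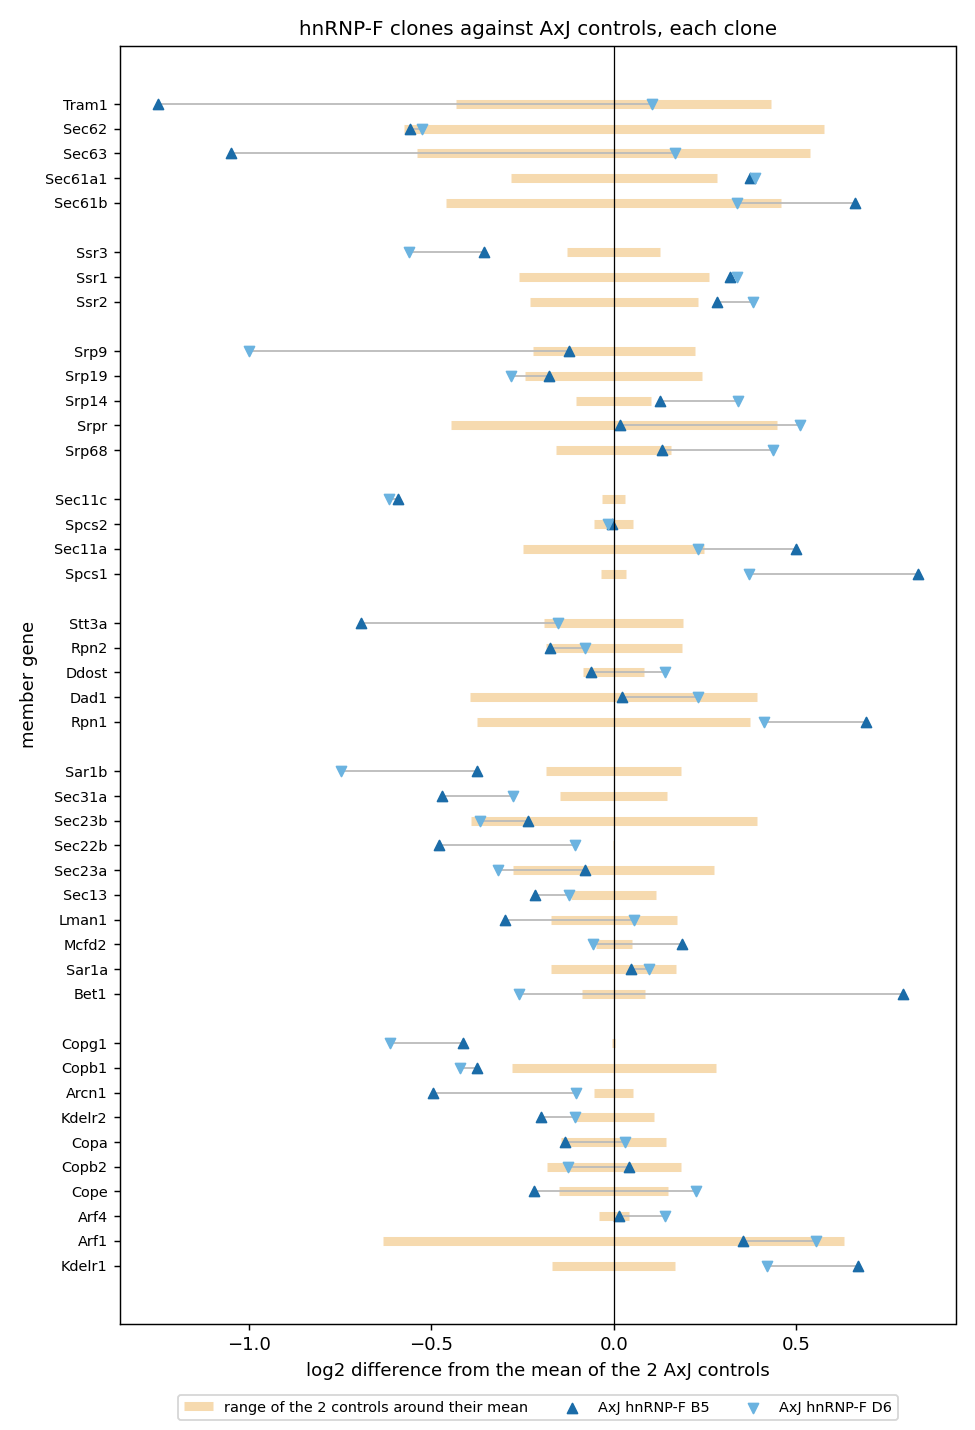
For each member gene (vertical axis, grouped by complex) the symbols give the log2 difference of clone B5 and of clone D6 from the mean of the 2 controls (horizontal axis), and the shaded bar spans the 2 controls. Both clones lie outside the bar on the same side for 16 genes, Sec11c and Kdelr1 among them, and no gene passed the test.

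The clones and the controls also differed among themselves, with 1 array a side and no test. In hnRNP-H against empty vector the median member difference was 0.10, with a difference of at least 2-fold upward for 2 members and downward for 1. These shares, 4.76 and 2.38 percent, stand beside 9.4 and 7.12 percent of all genes. The highest were Arf1 (1.27), Sec63 (1.08) and Sec61b (0.92), and the lowest were Sec62 (-1.15), Sec23b (-0.78) and Copb1 (-0.56). The 2 dimmer Sec62 probe sets differed by -0.84 and 0.31.

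In clone D6 against clone B5 the median was 0.042, with a difference of at least 2-fold upward for 2 members and downward for 1, against 5.54 and 5.01 percent of all genes. Tram1 (1.35), Sec63 (1.22) and Stt3a (0.54) were the highest, and Bet1 (-1.05), Srp9 (-0.88) and Spcs1 (-0.46) the lowest. Sec63 was thus higher in hnRNP-H than in empty vector and in D6 than in B5, the arrays of higher Gapdh ratio in each pair, and the part of RNA quality was not tested.

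Pairs of genes in the same step, or of like name, were set side by side by their A20 differences. The catalytic subunits Sec11a (-1.02) and Sec11c (-1.04) differed from the controls alike, though in the hnRNP-F clones Sec11a lay at 0.37 and Sec11c at -0.60. The pairs Sar1a and Sar1b (-1.11 and -0.53), Sec23a and Sec23b (-0.53 and -0.84), Kdelr1 and Kdelr2 (-0.35 and -0.67) and Copb1 and Copb2 (-1.56 and -0.39) each lay below 0. Only in the pair Arf1 and Arf4 (1.22 and -1.10) did the signs part. The differences within pairs were not tested.

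**Figure D5:**
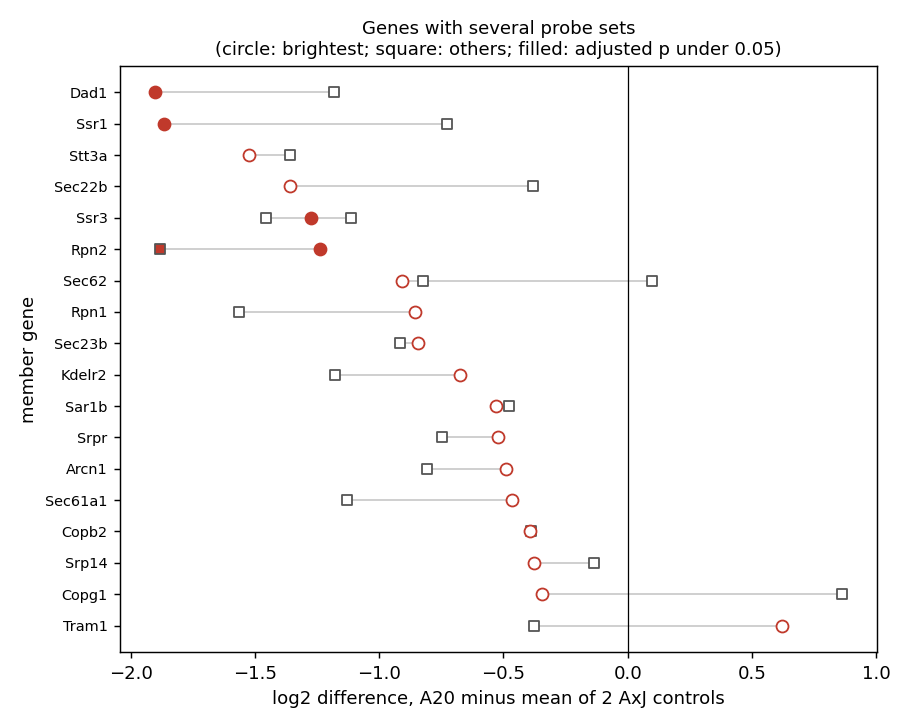
The log2 difference of A20 from the 2 controls (horizontal axis) is plotted for every kept probe set of the 18 member genes with several (vertical axis), with circles for the brightest set, squares for the others and filled symbols for an adjusted p under 0.05. The signs part in Copg1, Sec62 and Tram1, and in Rpn2 both probe sets passed.

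Of 62 member probe sets kept with 1 symbol, 55 lay below 0, where 51.7 percent of all genes, read by the brightest probe set, did. By the adjusted p in either direction, 11 of the 62 passed, all of them lower in A20. Of all 9108 kept probe sets, 536 passed in either direction. Of the 18 genes with several, 3 had probe sets of both signs in the A20 comparison and 8 in the hnRNP-F comparison.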

How the data were processed

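Polyadenylated RNA of 5 cultures was hybridised to 1 array each. Per the deposited values, the authors gave 1 linear intensity per probe set, scaled to a common trimmed mean of about 150 per array. No software, background step or detection call is given in the sources used here. The number of arrays limits the precision. Of 12488 probe sets, 66 maker's controls were left out of the tests. Probe sets were named from GEO's platform table, with symbols brought up to date by gene ID (10855 probe sets with 1 symbol, 396 with several, 1237 with none), and a gene was read from its brightest probe set. Array medians deviated by -11.6 to 8.76 percent from their mean, so arrays were quantile normalised. The pseudocount was the 20th percentile of all values, and 9108 probe sets with a highest value above the 40th percentile were kept. The fit used limma 3.58.1 (R 4.3.3), lmFit then eBayes with a trend on intensity, on all 5 arrays with 3 coefficients, 2 residual degrees of freedom and a prior of 6.51, two-sided, with Benjamini-Hochberg adjustment over all probe sets kept. A20 has 1 array, taken to vary as AxJ does. On simulated data with 200 changed probe sets, the A20 comparison recovered 22, 60, 94 and 100 percent of 2, 4, 8 and 32-fold changes. There 19 of 157 calls were false, a larger share than an adjusted p under 0.05 aims at. Every simulated array, A20 included, was drawn with the spread of the fit, so a wider spread of A20 was not simulated. For the hnRNP-F comparison 9 of 144 calls were false.

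The members and the other lists were chosen with earlier results of these data known. Named are all members, with values on each array for those past the threshold and for the highest and lowest of each complex, the 3 largest statistics where none passed, the 3 highest and lowest where there was no test, and other pathway genes past the threshold. Alternatives covered scaling, pseudocount, filter, spread model, grouping, the Gapdh ratio, probe set choice and each array left out. Protein sequences of the paralogue pairs were not analysed here.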

Additional observations from a re-analysis of the deposited data

How the results depend on the processing

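The count of members lower in A20 was 10. It stayed between 9 and 11 under the authors' scaling, both other pseudocounts, the stricter filter and all 4 AxJ arrays as 1 group. The same held with the Gapdh ratio as a covariate and with 1 probe set per gene. By the median of all probe sets of a gene the count was 7. That count reads the median of their adjusted p-values, which is no test of its own. The genes behind a like count differed: the authors' scaling kept 7 of the 10 and added Sec63 and Stt3a, and all 4 AxJ arrays as 1 group kept 8 and added Arf4, Sar1a and Ssr2. The count was 4 under median scaling, 4 without the filter and 0 without the intensity trend (limma, 17 members then had an unadjusted p under 0.05, all lower). It was 23 when only hnRNP-H and D6 stood for AxJ, a fit in which 10.3 percent of all genes were lower. With 1 AxJ array left out it ran from 1 to 9, and 1 of those 9, Arf1, was higher. The median member difference stayed between -0.94 and -0.85, but was -0.68 under median scaling, where the median of all genes moved to 0.10 from -0.029. Relative to all genes it was -0.87 as reported, -0.79 under the authors' scaling and -0.78 under median scaling.

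No member passed for the hnRNP-F clones under any alternative run. The median of hnRNP-H against empty vector was 0.32 under median scaling. Signs turned for Srp19 (0.075 under median scaling, 0.044 with only hnRNP-H and D6, and -0.461 to 0.025 over the arrays left out, the highest without empty vector), Cope (-0.13 with only hnRNP-H and D6, and -0.090 to 0.211 over the arrays left out, the lowest without empty vector), Spcs1 (-0.082 with all 4 AxJ arrays as 1 group) and Copg1 (0.26 by the median of its probe sets), none past the threshold. The cause was not tested. No paired analysis was possible because the labels give the groups no shared replicate numbers.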

Other observations

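Probe sets of 1 gene ordered the AxJ arrays differently for some members. In the order empty vector, hnRNP-H, B5, D6, one Sec61a1 probe set read 1085, 648, 1021 and 588, while the one used for the gene read 704, 1045, 1114 and 1125. For Rpn1, one probe set read 1042, 558, 816 and 539, and the one used for the gene read 715, 1208, 1507 and 1239. Empty vector and B5 are the arrays of lower Gapdh ratio (0.212 and 0.181 against 0.866 and 0.683), and the part of that ratio in these orders was not tested. For both genes each probe set was lowest in A20.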
